A study of Mus musculus with 8 samples.

Results

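Of the 36227 probes of a mouse liver array, 56 had a higher intensity under dietary restriction than under free feeding both in mice with and in mice without the gene for neuropeptide Y. They were chosen by their measured values. A probe had to have a value on all 8 arrays, which 36092 did, and a mean log2 intensity of 6.5 or more after quantile normalization, which left 17187. All 4 restricted mice then had to lie above all 4 freely fed mice, and the mean difference had to reach 0.585 on the log2 scale, or 1.5-fold, in each genotype taken alone. The restriction effect of these 56 probes is therefore given as a description, without a test, as is the difference between the rises in WT and KO, since the choice set a threshold on both. Tests are kept for the level in KO against WT, on which no threshold was set. The separation of all mice together nevertheless limits how far the genotypes can lie apart in these probes.

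The 8 arrays came from the livers of 8 male mice whose background was mixed, from 129S-Npytm1Rpa/J with 129S6/SvEvTac, 1 mouse per CodeLink Mouse Whole Genome Bioarray. The WT-AL group (Npy+/+, fed ad libitum), the WT-DR group (Npy+/+, dietary restriction), the KO-AL group (Npy-/-, fed ad libitum) and the KO-DR group (Npy-/-, dietary restriction) held 2 mice each. Restriction began when the mice were 12 weeks old, and restricted mice received 70% of what the freely fed ones ate on average. The sources used here do not give the age at which the livers were taken or the length of restriction. The labels give the KO genotype as homozygous and name no promoter or cell type for the deletion.

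Dietary restriction is a lowered food supply without malnutrition, and it extends lifespan in many strains of laboratory mice. The liver meets a smaller food supply by breaking down fatty acids, forming ketone bodies and releasing glucose made from amino acids and glycerol, and transcript levels of the enzymes involved follow insulin, glucagon, glucocorticoids and fatty acids. Neuropeptide Y is made by neurons, among them hypothalamic neurons that drive food intake when energy is short. The files pair no probe number with a gene, so which of these transcripts the 56 probes read was not analysed here, nor whether several of them read the same gene. For the same reason neither the tissue nor the deletion was checked against marker genes, and no sequence is shown.

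The choice fixes that all restricted mice lay above all freely fed mice for each of the 56 probes, but not by how much. The distance from the highest freely fed to the lowest restricted mouse ran from 0.03 to 1.67 log2 units, with a median of 0.37, and was under 0.1 for 2 probes. The mean normalized log2 intensity of the 56 was 8.17 and 8.37 in the mice of WT-AL and 8.30 and 8.26 in those of KO-AL. It was 9.24 and 9.27 in the mice of WT-DR and 9.21 and 9.41 in those of KO-DR. In the intensities as deposited, the median of the 56 was 298.0 and 288 for WT-AL, 358 and 241 for KO-AL, 644 and 703 for WT-DR, and 489 and 572 for KO-DR. In extracts of whole liver, more cells of a type and more RNA per cell cannot be told apart.

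Most of the differences were moderate. The rise in WT had a median of 0.83 on the log2 scale, or 1.78-fold, and ran from 0.60 to 2.33. The rise in KO had a median of 0.91, or 1.87-fold, and ran from 0.59 to 2.50. In the values as deposited the median rise of the same 56 probes was 0.91 in WT and 0.67 in KO. The probes were chosen by these rises, so both normalized medians lie above the threshold by construction. The standard error of a rise in 1 genotype, 2 mice against 2, had a median of 0.22 over the 56 probes and also over the 25264 probes tested. Both genotypes reached 2-fold for 16 of the 56 probes, WT alone for 2 and KO alone for 9, and 29 probes stayed under 2-fold in both. The smaller of the rises lay under 0.8 log2 units for 30 of the 56. The probes with larger rises in WT tended to have larger rises in KO (Pearson r = 0.67 over 56 probes, and 0.50 over 54 without the largest pair), although the threshold in both genotypes shapes this relation, which is across probes and not across mice.

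By the smaller of the rises in WT and KO, probes 408 and 8403 came first, and they were the only members above 4-fold in both genotypes. In KO taken alone, probe 23049 rose more than probe 8403. Probe 408 read an intensity of 268 and 278 in WT-AL and 307 and 110 in KO-AL, against 1553 and 1300 in WT-DR and 803 and 1013 in KO-DR, as deposited. The restricted mice of both genotypes lay far above the freely fed ones, and KO-AL replicate 2 was the lowest of all 8. After normalization, probe 408 was 5.03-fold higher in WT (log2 2.33, SE 0.36) and 5.66-fold higher in KO (log2 2.50, SE 0.36).

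Probe 8403 followed the same order of mice. Its intensity was 300.5 and 335 in WT-AL and 395 and 184 in KO-AL, against 1683 and 1578 in WT-DR and 982 and 1079 in KO-DR. It was 5.01-fold higher in WT and 4.41-fold in KO (SE 0.26 on the log2 scale for each). For both probes KO-AL replicate 2 was again the dimmest array, and the lowest restricted mouse was KO-DR replicate 1. The distance from the highest freely fed to the lowest restricted mouse was 1.62 log2 units for probe 408 and 1.67 for probe 8403.

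The set covered a wide range of brightness. Probe 351 was the brightest of the 56, at a mean log2 of 11.5. It read 1589 and 1924 in WT-AL and 2317 and 2417 in KO-AL, against 3957 and 3804 in WT-DR and 5076 and 5992 in KO-DR. Its rise was the same in both genotypes, 2.18-fold in each (SE 0.20 on the log2 scale), while both KO groups lay above their WT counterparts. The dimmest of the 56 had a mean log2 of 6.53 and read 50.7 and 85.2 in WT-AL and 57.7 and 67.4 in KO-AL, against 150 and 106 in WT-DR and 149 and 130 in KO-DR. No member had a deposited value at or below 7 intensity units, below which values were raised to that floor.

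When the 17187 probes at this level were split into 4 brightness classes of equal size, 8 members lay in the dimmest class, 10 and 17 in the middle classes and 21 in the brightest. Separation of the feeding groups alone was met by 75 probes in the dimmest and 257 in the brightest class. The members of the brightest class had a median rise of 0.77 in WT and 0.73 in KO, and those of the dimmest class 0.88 and 1.17.

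The separation of single mice was met by 571 of the 17187 probes (3.32%), and the size of the difference removed 515 of them. Of the 571, 84 reached 0.585 in WT, 132 reached it in KO and 56 reached it in both, which is 0.326% of the probes at this level. The mirrored conditions for lower intensity were met by 557 probes for separation and by 161 in full, 0.937% of the same probes. Just inside the threshold, the smaller rises were 0.589 and 0.590, and just outside it they were 0.579 and 0.579. A further 16 probes reached the rise in both genotypes without separation of all mice, and 111 met every condition except brightness.

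The choice can be taken apart by genotype, since the mice of WT and KO share no array. At this level 239 probes (1.39%) met the conditions within WT alone and 317 (1.84%) within KO alone. Both sets of conditions were met by 64 probes, which is 26.8% of those found in WT and 20.2% of those found in KO. The other 8 of the 64 overlapped between the feeding groups when the genotypes were put together. Of the 239 probes found in WT, 13 (5.44%) met the mirrored conditions for lower intensity in KO, as did 3.6% of all probes at this level. The median rise of the 239 in KO was 0.15. Of the 317 found in KO, 1 (0.315%) met the mirrored conditions in WT, against 2.25% of all probes at this level, and their median rise in WT was 0.29. Most probes that met the conditions in 1 genotype thus did not meet them in the other. The share that did is given as a description, without a test, beside that of all probes at this level. It was 26.8% against 1.84% for the conditions in KO, and 20.2% against 1.39% for those in WT. The genotypes were normalized together and share the brightness condition, and 56 of the 64 probes are the members themselves. The overlap was larger for lower intensity, where 386 probes met the mirrored conditions in WT, 619 in KO and 186 in both.

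In the 56 probes the 2 mice of a group differed most in the freely fed KO group, while over all probes at this level that group differed least. Among the 56 probes, the mice of KO-AL differed by 0.585 or more for 13 probes (23.2%), against 5.86% of all probes at this level. In WT-AL 10 probes (17.9%) differed as much, against 12.6%. In WT-DR 2 probes did (3.57%, against 8.89%) and in KO-DR 5 did (8.93%, against 9.55%). The median SD of the 56 between the mice of a group was 0.19 for WT-AL and 0.25 for KO-AL, against 0.13 for WT-DR and 0.16 for KO-DR. Over all probes at this level it was 0.158 for WT-AL, 0.130 for KO-AL, 0.132 for WT-DR and 0.148 for KO-DR. The choice used the values of the 56, so no test is given.

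Single mice stood out in some of the probes. KO-AL replicate 2 lay below replicate 1 by 0.585 or more for 6 probes, probes 408 and 8403 among them, and above it by as much for 7. WT-AL replicate 2 lay above replicate 1 by as much for 9 probes and below it for 1. Under restriction, KO-DR replicate 2 exceeded replicate 1 for 44 of the 56 probes, with a median difference of 0.21 where the median over all probes at this level was 0.01. KO-DR replicate 1 was the lowest restricted mouse for 25 probes and KO-DR replicate 2 for 4. The choice used the values of these probes, and the counts by single mouse were not set against all probes. Nothing is therefore read from them.

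Genotype was tested on all 25264 probes with limma, and p-values were adjusted over all of them after Benjamini and Hochberg. Averaged over feeding, no member passed an adjusted p of 0.05, and no other probe did, while up to 3 other probes passed under other settings. The smallest adjusted p among the 56 was 0.722. Without adjustment, 5 members (8.93%) had a p under 0.05, against 6.73% of all tested probes. All 5 were higher in KO, a direction and p that 3.76% of all tested probes shared. The median difference of the 56 was 0.05 on the log2 scale and that of all tested probes was -0.003. The intensity was higher in KO for 31 of the 56 probes, against 49.4% of all tested probes. In the values as deposited it was higher for 25, where the median of all tested probes was itself -0.10. With median centring it was higher for 36, where that median was 0.03. After quantile normalization the difference stayed under 0.585 in size for each of the 56, a size that 3.44% of all tested probes reached. Its 95% confidence interval lay within 1 log2 unit of 0 for 52. The separation of all mice limits this difference in the members, so nothing is read from these counts. The median standard error was 0.16 over the 56 and over all tested probes.

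Among the members, probes 8080 and 351 had the smallest unadjusted p with higher values in KO. Probe 8080 read a normalized log2 of 8.08 and 8.15 in WT-AL, 8.54 and 8.50 in KO-AL, 8.76 and 8.99 in WT-DR, and 9.06 and 9.32 in KO-DR. Both KO mice lay above both WT mice in each feeding group. KO exceeded WT by 0.36 on average over feeding (interval at 95% from 0.07 to 0.65, adjusted p = 0.722 by limma). For probe 351 the averaged difference was 0.40 (interval 0.06 to 0.73, with the same adjusted p by limma), and its KO mice too lay above the WT mice in each feeding group.

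Probes 8403 and 408 had the smallest p among members lower in KO. For probe 408 the averaged difference was -0.56 (interval -1.16 to 0.03, adjusted p = 0.722 by limma), and it was -0.29 without KO-AL replicate 2 and -0.84 without KO-AL replicate 1. For probe 8403 the averaged difference was -0.41 (interval -0.83 to 0.02, with the same adjusted p by limma) and -0.22 and -0.59 without the same mice. The intervals hold 0, and they are not corrected for the choice of the probes by p.

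The genotypes were also compared within each feeding group, 2 mice against 2. The 95% confidence interval lay within 1 log2 unit of 0 for 46 of the 56 probes in freely fed and for 43 in restricted mice. The separation of all mice limits these differences in the members but not in all tested probes. Nothing is therefore read from the counts and shares of members in these comparisons. In freely fed mice the smallest adjusted p of a member was 0.598 by limma. An unadjusted p under 0.05 was reached by 1 member (1.79%), against 7.72% of all tested probes and 4.6% for those higher in KO. Freely fed KO mice were higher for 31 of the 56 probes (48.5% of all tested probes), and 1 member differed by 0.585 or more (9.74%). Probe 33060, the member with an unadjusted p under 0.05, read 6.78 and 7.12 in WT-AL and 7.65 and 7.30 in KO-AL, a difference of 0.52 (95% confidence interval 0.06 to 0.99), which was 0.35 without KO-AL replicate 1. In restricted mice the smallest adjusted p of a member was 0.997 by limma, and 4 members (7.14%), all higher in KO, had an unadjusted p under 0.05, against 3.59% of all tested probes in either direction and 1.97% higher in KO. In restricted mice KO was higher for 30 of the 56 probes (49.8% of all tested probes). In the values as deposited it was higher for 17, where the median difference over all tested probes was itself -0.28. With median centring it was higher for 39, where that median was 0.04. After quantile normalization, 5 members (8.93%) differed between the genotypes in restricted mice by 0.585 or more, against 5.82% of all tested probes.

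The rise in KO minus the rise in WT is described next. Both rises had to reach the threshold, which limits their difference from both sides, so it has no test here and nothing is read from its shares against all probes. The difference had a median of 0.01 over the 56 and 0.02 over all tested probes, with a median standard error of 0.32 log2 units over the 56. It reached 0.585 in size for 5 members and for 15% of all tested probes. The rise was larger in KO for 32 of the 56 probes (51.8% of all tested probes), but for only 9 in the values as deposited, where the median difference over all tested probes was itself -0.33. The deposited arrays of KO-DR were also the dimmest in median intensity among the restricted mice, at 78.7 and 67.9 against 92.7 and 89.5 in WT-DR. With arrays centred on their 75th percentile, the rise was larger in KO for 38 of the 56 probes. The median difference over all tested probes was then 0.06. The part of array brightness in the result was not tested beyond these values.

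Probe 16212 had the largest difference relative to its standard error. It read a log2 of 6.97 and 6.79 in WT-AL and 6.03 and 6.99 in KO-AL, against 7.47 and 7.82 in WT-DR and 8.30 and 8.97 in KO-DR. Its 2 restricted KO mice were the highest of all 8, and 1 freely fed KO mouse was the lowest. It was 1.70-fold higher under restriction in WT and 4.36-fold in KO, a log2 difference of 1.36. Without KO-AL replicate 1 the difference was 0.89, and without KO-AL replicate 2 it was 1.83.

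Probe 23049 came next among those with a larger rise in KO, at 2.44-fold in WT and 4.55-fold in KO. Its difference of 0.90 was 0.43 without WT-AL replicate 2, 1.37 without WT-AL replicate 1 and 0.58 in the values as deposited. Among members with a larger rise in WT, probe 33060 had a difference of -0.49, with 2.69-fold in WT and 1.91-fold in KO. This was -0.31 without KO-AL replicate 1, -0.32 without WT-AL replicate 1 and -0.86 in the values as deposited. Its restricted mice were level between the genotypes, at 8.32 and 8.44 in WT-DR and 8.40 and 8.42 in KO-DR, while its freely fed KO mice were higher than its freely fed WT mice. Probe 14679 had a difference of -0.58, which was -0.09 without WT-AL replicate 1, -1.07 without WT-AL replicate 2 and -0.89 in the values as deposited.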

How the data were processed

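Total RNA from 8 livers was made into biotin-labelled cRNA and hybridised for 18 hours, per the labels' protocols. The deposited table holds 1 linear intensity per probe and array. Column medians differed and some values lay below 0. The quality tags that the labels describe are not used here. The authors' background correction and normalization were not applied anew here or are not stated in the labels. Any made before deposit is carried into the values used here. The code -9999 was read as missing.

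Mice were grouped by title, where CR stands for the restricted groups; the labels say that arrays hold separate mice. From the deposited intensities, values below 7 were set to 7, log2 was taken and arrays were quantile normalized, which forces a common distribution and hides a shift of all transcripts. Probes above the 30th percentile of mean log2 (25264) entered a limma 3.58.1 fit (R 4.3.3) with 1 mean per group and 4 residual degrees of freedom. Tests were two-sided, adjusted over all tested probes. The difference of the rises, planned as a test, is given as a description, since the choice used both rises. The number of arrays limits precision. The fit was tested on simulated data with planted genotype differences larger than any averaged one of the members. It does not tell how well differences of the members' size are found.

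The members, the tests and the lists were chosen with earlier results of these data known. Lists of pathway genes, cell type markers and promoter motifs could not be applied, since the files pair no probe number with a gene. The rule for named probes took the largest smaller-of-the-2 rise, the highest mean level and, per contrast, the smallest p in each direction. Without gene names it was shortened to at most 2 probe numbers per direction and comparison, and other members are given by their values. For genotype in freely fed mice only probe 33060 is named, and for genotype in restricted mice no probe is. Alternatives covered normalization, floor or pseudocount, filters, missing values, how the variance was moderated, weights per array, a replicate block and leaving out each mouse.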

Additional observations from a re-analysis of the deposited data

How the results depend on the processing

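Of the 56 probes, 32 met the conditions in the values as deposited, where 42 probes met them in all; there, 51 of the 56 kept all restricted above all freely fed mice, all 56 reached the rise in WT and 35 reached it in KO. With a log2 rise of 1 asked for, 16 probes met the conditions, all of them members by construction. Under the other settings with all mice, between 46 and 72 probes met the conditions and 46 to 56 members stayed. Leaving out each mouse gave 48 to 74 probes, with 44 to 53 members kept, the fewest without KO-DR replicate 2. Of the 56 members, 29 were kept whichever mouse was left out. In all 5 other forms of the values (as deposited, each centring, floor of 20, pseudocount of 32), 26 were kept. Only 22 were kept in all 13 of these alternatives. No member passed an adjusted p of 0.05 for genotype, in either diet or averaged, under any of the 10 settings or without any of the 8 mice. Other probes did: up to 3 for averaged genotype (filter at 6.5, and trend and robust prior), 100 in freely fed mice without WT-AL replicate 1 and 3 in restricted mice without WT-DR replicate 1. With all mice kept, the unadjusted count of 5 for averaged genotype ran from 1 (values as deposited) to 9 (trend and robust prior). The share of all tested probes ran from 5.74% to 8.01%. The count of 4 in restricted mice ran from 2 (values as deposited) to 5, and that share from 3.44% to 8.50%. For freely fed mice the count of 1 ran from 1 to 6 (trend and robust prior), and the share from 6.06% to 8.47%. Nothing is read from these counts about the members. In the values as deposited the median of all tested probes shifted by -0.28 for genotype in restricted mice. The signs held under these settings for the 4 probes named for averaged genotype, the 4 named for the difference of the rises and probe 33060 in freely fed mice. Same-numbered mice deviated from their group means with correlations from -0.25 to 0.28, so the numbers were not taken as pairs, and with the replicate number as a block 0 members passed in each of the 3 genotype comparisons. The cause of these shifts was not tested.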
